A study of Homo sapiens with 9 samples.

Results

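The genes described here encode the nuclear share of the respiratory chain and of ATP synthase. They were taken by their symbols in the files: NDUFA, NDUFB, NDUFC, NDUFS and NDUFV followed by a number for complex I, SDHA to SDHD for complex II, UQCR for complex III, COX4 to COX8 for complex IV and ATP5 for complex V, without pseudogenes. The rule took 87 of 23284 gene symbols, of which 37 belong to complex I, 4 to complex II, 9 to complex III, 18 to complex IV and 19 to complex V. The rule uses no measured value, although it was set with earlier results of these data known. Some symbols carry a family name without being a structural subunit of that complex. COX4NB is now named EMC8, COX7A2L encodes a factor that joins complexes III and IV into supercomplexes, ATP5S and ATP5SL are now named DMAC2L and DMAC2, ATP5J2-PTCD1 is a read-through of neighbouring genes, and NDUFA4 is today counted with complex IV.

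HT-29 is an established cell line from a human colon adenocarcinoma, and 5-Aza (5-aza-deoxycytidine) is a cytidine analog that is incorporated into DNA and traps the enzymes that methylate it. Cultures were kept for 5 days in vehicle (DMSO, the 0 µM group), in 5 µM 5-Aza or in 10 µM 5-Aza, and RNA of 3 separately treated cultures per group was measured by paired-end RNA-Seq, which gives 9 samples. All groups are the same line, so no value here bears on other colon cells. The levels are FPKM as deposited, fragments corrected for transcript length and library size. They sum to between 3.69e+09 and 5.91e+09 per sample, are used only as relative levels, and are given below in kFPKM (1000 FPKM) or MFPKM (1000 kFPKM).

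The respiratory chain passes electrons from NADH at complex I and from succinate at complex II through ubiquinone to complex III, from there through cytochrome c to complex IV, and on to oxygen. Complexes I, III and IV pump protons out of the mitochondrial matrix, and complex V lets them return and makes ATP. Several small subunits of complex IV exist as pairs of genes, a form made in nearly all tissues and a form largely restricted to testis, muscle, heart or lung, and colon epithelium is known for the ubiquitous forms.

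The estimated depth was 16200000 to 30400000 fragments in the 0 µM samples, 28500000 to 33400000 at 5 µM and 12200000 to 26500000 at 10 µM 5-Aza. The sample of lowest depth, 10 µM replicate 1, also stood apart in level, and the median of all members at 10 µM is therefore given with and without it. Differences of single genes, medians by complex and sums at 10 µM include it. All 8 markers of colonic epithelium were above 0 in all samples, and their summed level was 84.9 to 102 MFPKM at 0 µM, 33.3 to 37.2 MFPKM at 5 µM and 27.3 to 48.1 MFPKM at 10 µM. KRT8, KRT18 and KRT19 carried most of that sum, while EPCAM (3.22 to 3.55 and 2.59 to 3.44 MFPKM) and CDH1 (2.10 to 2.16 and 1.85 to 2.25 MFPKM) overlapped between 0 µM and 5 µM. LGALS4 (6.38 to 8.67 and 3.97 to 4.26 MFPKM) was lower at 5 µM without overlap. So were VIL1 (718 to 839 and 521 to 610 kFPKM) and CDX2 (52.4 to 63.3 and 32.1 to 38.8 kFPKM). At 10 µM EPCAM (2.26 to 3.09 MFPKM) and CDH1 (1.01 to 1.66 MFPKM) were also below all controls. The 4 leukocyte markers summed to 36.3 to 48.2, 36.5 to 44.7 and 40.4 to 50.4 kFPKM at 0, 5 and 10 µM, nearly all of it CD14, while PTPRC and CD3E were at or near 0. The 4 fibroblast markers summed to 5.83 to 9.14, 32.3 to 45.1 and 18.0 to 25.2 kFPKM, nearly all of it COL1A1 at both doses, with COL1A2 and COL3A1 under 1 kFPKM and DCN at 0 in all 5 µM samples, and the 3 endothelial markers to 1.90 to 5.03, 9.79 to 12.4 and 3.27 to 3.59 kFPKM. The part of these shifts in the results below was not tested. In bulk samples such as these, fewer cells of a kind and less RNA per cell cannot be told apart.

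The largest differences concerned tissue-restricted forms of complex IV subunits, COX6B2 and, on fewer fragments, COX8C, each of which has a ubiquitous partner of known high expression. Their promoters are shown beside those of the partners since 5-Aza blocks methylation at CpG, and the capitals mark each CpG in the 150 bases before the transcription start. The sequences are RefSeq promoter sequence of GRCh38.p14, read 5′ to 3′ on the strand of the gene.
COX6B2, chr19:55354720-55354869, minus strand: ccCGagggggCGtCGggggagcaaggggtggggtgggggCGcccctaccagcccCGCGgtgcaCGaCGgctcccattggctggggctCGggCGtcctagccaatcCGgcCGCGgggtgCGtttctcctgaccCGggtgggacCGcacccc
COX6B1, chr19:35648173-35648322, plus strand: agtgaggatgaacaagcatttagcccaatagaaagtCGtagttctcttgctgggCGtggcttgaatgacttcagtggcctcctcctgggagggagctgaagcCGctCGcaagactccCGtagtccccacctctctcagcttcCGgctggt
COX8C, chr14:93347032-93347181, plus strand: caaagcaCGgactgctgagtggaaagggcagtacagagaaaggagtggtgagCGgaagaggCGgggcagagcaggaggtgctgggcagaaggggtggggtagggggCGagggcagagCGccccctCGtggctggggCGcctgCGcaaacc
COX8A, chr11:63974470-63974619, plus strand: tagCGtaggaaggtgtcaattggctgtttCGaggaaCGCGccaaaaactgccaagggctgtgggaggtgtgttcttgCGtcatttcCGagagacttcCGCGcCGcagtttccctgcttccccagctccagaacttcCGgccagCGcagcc
The stretches hold 16 CpG for COX6B2, 6 for COX6B1, 8 for COX8C and 11 for COX8A. Over 300 bases, from 250 before to 50 after the start, the windows hold 31, 16, 10 and 18 CpG, against a median of 14 over 35116 RefSeq windows of the same length. DNA methylation was not measured in these samples, and the counts describe the sequence alone.

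COX6B2, the testis form of the subunit that faces the intermembrane space and helps join the complex IV dimer, was the member with the clearest change. It lies on chromosome 19 of GRCh37 (chr19:55860674-55866087, minus strand). Its level was 3.68, 7.66 and 5.42 kFPKM in the 0 µM samples, 101, 74.1 and 88.9 kFPKM at 5 µM and 40.1, 23.3 and 45.7 kFPKM at 10 µM. All 5 µM samples were highest and all controls lowest, with no overlap between the 3 groups. On the log2(FPKM + 1) scale used throughout, the 5 µM vs. 0 µM difference was 4.03 ± 0.29 (SE; limma, adjusted p = 0.000311 after Benjamini-Hochberg correction over all symbols). The 10 µM vs. 0 µM difference was 2.71 ± 0.38 (adjusted p = 0.00886), and the 10 µM vs. 5 µM difference was -1.32 ± 0.27 (adjusted p = 0.0357).

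The rise of COX6B2 passed the test against the control under all 18 alternative settings at 5 µM and all 19 at 10 µM, while the lower level at 10 µM than at 5 µM passed under 8 of 19. Its same-strand upstream neighbour FAM71E2, whose end lies 189 nucleotides from COX6B2 and which was chosen after its values were seen, was at 0.513, 0.170 and 0.721 kFPKM at 0 µM, 31.2, 24.1 and 27.6 kFPKM at 5 µM and 9.49, 7.03 and 4.53 kFPKM at 10 µM. Other genes nearby differed. IL11 was also higher at 5 µM than in the control (22.3 to 26.5 against 6.60 to 12.7 kFPKM). SUV420H2, which lies 1185 nucleotides away, TMEM150B and TMEM190 overlapped the control at 5 µM. TMEM238 was lower there (79.6 to 125 against 287 to 443 kFPKM). COX6B2 also overlaps an annotated same-strand read-through gene (ENSG00000267706), so fragments of either cannot be told apart.

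COX6B1, the ubiquitous partner, was at 2410, 2531 and 2010 kFPKM in the control, 2327, 2504 and 2291 kFPKM at 5 µM and 1417, 2737 and 2330 kFPKM at 10 µM. Its groups overlapped, and the 5 µM vs. 0 µM difference was 0.04 on the log2 scale (95% interval -0.23 to 0.31, adjusted p = 0.781). COX6B2 as a percent of COX6B1 within a sample, which no scaling between libraries touches, was 0.153, 0.303 and 0.270% at 0 µM, 4.34, 2.96 and 3.88% at 5 µM and 2.83, 0.851 and 1.96% at 10 µM. Both treated groups lay above the control without overlap (2-sided exact permutation test, p = 0.1, the lower limit for 3 against 3 samples). COX6B2 thus stayed a small fraction of the ubiquitous form at either dose.

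COX8C encodes the testis form of the smallest complex IV subunit and lies within the gene UNC79 on the same strand (chr14:93813528-93814702, plus strand, GRCh37). It was listed at 0 in all 3 control samples and all 3 samples at 10 µM, and stood at 19.0, 15.8 and 12.1 kFPKM at 5 µM. These levels rest on 19, 15 and 13 estimated fragments. COX8C entered the fits only through the 5 µM group, with no spread in the group listed at 0, so its p and fold say nothing and are left out, and the fragments are given instead. At the mean 5 µM level, 6.50, 9.82 and 13.9 fragments would have fallen on COX8C in the control libraries and 8.27, 13.1 and 11.1 in the 10 µM libraries. The limit that a count of 0 allows, 3 fragments, was 3.37 to 7.21 kFPKM in the control and 3.59 to 5.67 kFPKM at 10 µM, below every 5 µM sample. UNC79 itself was between 61.1 and 610 FPKM in all samples.

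COX8A, the ubiquitous partner of COX8C, was at 3682, 3218 and 2503 kFPKM at 0 µM, 3039, 3131 and 2982 kFPKM at 5 µM and 1454, 2959 and 2446 kFPKM at 10 µM. The groups overlapped, and the 5 µM vs. 0 µM difference was -0.02 (95% interval -0.39 to 0.34, adjusted p = 0.921). COX8C was at most 0.624% of COX8A in any sample.

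Other tissue-restricted forms were listed above 0 at 5 µM alone, on very few fragments. COX7B2, the testis partner of COX7B, was listed at 0 in the control and at 10 µM and was at 5.77, 2.03 and 3.60 kFPKM at 5 µM, which stands for 3, 1 and 2 fragments. COX6A2, the heart and muscle partner of COX6A1, was at 1.40, 1.47 and 2.62 kFPKM at 5 µM only (1, 1 and 2 fragments). COX4I2, the lung partner of COX4I1, was at 0.674, 0.709 and 1.26 kFPKM at 5 µM only (1, 1 and 2 fragments). The same level in the control would have given at most 1.75 fragments per library for COX7B2 and 1.16 for COX6A2 and COX4I2, and the control libraries had lower depth on average. An estimate from transcript length instead put COX7B2 at up to 6.31 fragments in a sample, so its counts are uncertain. On the counts given, no single control library could show a difference, and sums over libraries were not tested for these 3 genes. The test on log2 values, which does not model counting error, called them as it did COX8C, and those 4 calls carry no weight below.

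COX7A1, the muscle partner of COX7A2, was expressed at low level in all samples, at 13.9, 10.1 and 15.6 kFPKM at 0 µM, 24.3, 15.2 and 24.8 kFPKM at 5 µM and 18.6, 16.6 and 11.4 kFPKM at 10 µM. The groups overlapped, and the 5 µM vs. 0 µM difference of 0.69 (95% interval 0.04 to 1.33) did not pass (adjusted p = 0.088). It rested on an estimated 10 to 24 fragments per control sample and 25 to 46 at 5 µM. An estimate from transcript length gave fewer, 2.59 to 11.9 over all samples.

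**Figure D1:**
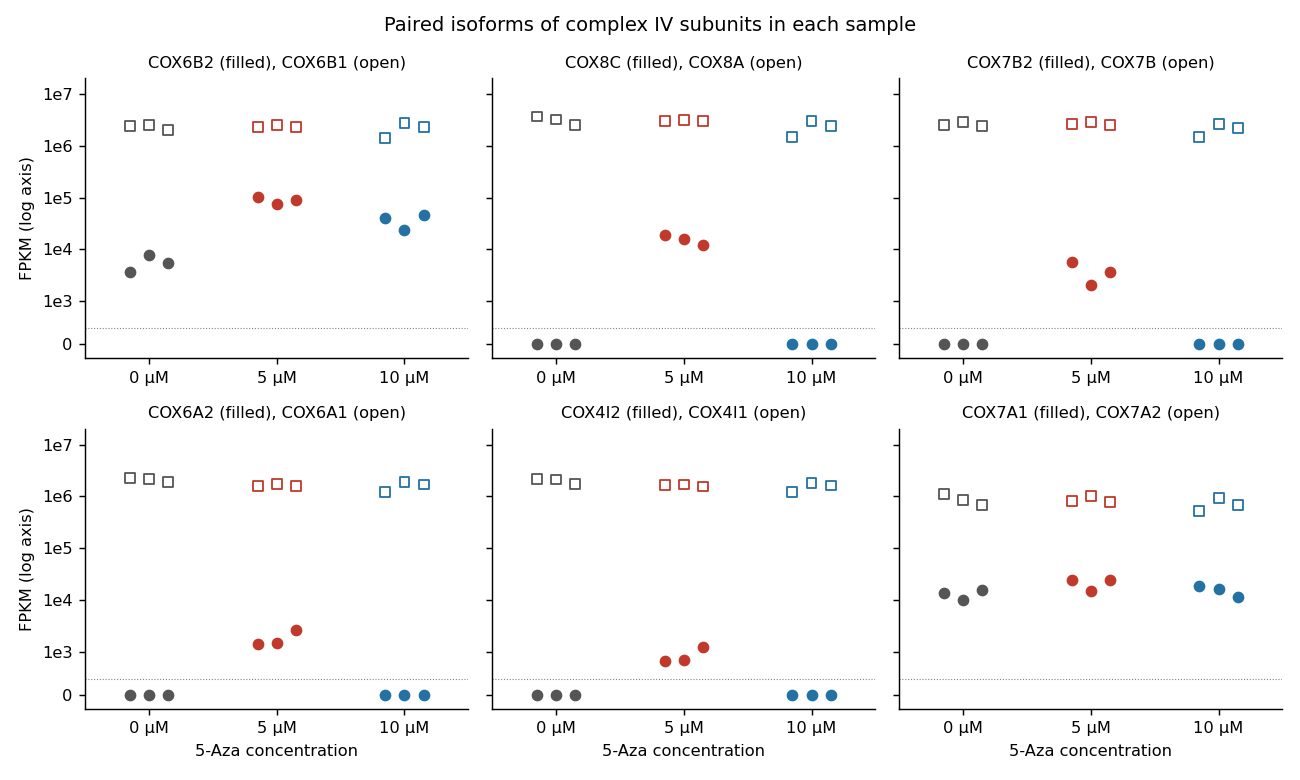
Levels of the ubiquitous and tissue-restricted forms of complex IV subunits in each sample, by 5-Aza group, as FPKM on a log axis (filled circles, tissue-restricted form; open squares, ubiquitous form), with samples listed at 0 drawn below the dotted line. COX6B2 rises from 3.68 to 7.66 kFPKM in the control to 74.1 to 101 kFPKM at 5 µM, while every ubiquitous form stays far above its partner in all samples.

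Outside these isoforms most of the genes were abundant, and in 5 µM vs. 0 µM those that fell did so by less than 2-fold. In the control 78 of the 87 had a mean above 100 kFPKM (119 to 6214 kFPKM, ranks 108 to 6716 of all symbols), and 83 were above 0 in all 9 samples. In 5 µM vs. 0 µM all 87 were tested: 6 had risen and 27 had fallen at an adjusted p of at most 0.05 by limma, with a median difference of -0.26. With all 9 samples in 1 fit 5 had risen and 2 had fallen (ATP5S and NDUFB11), so 25 of the 27 falls did not pass in that fit. There, 3685 of all 20051 symbols had risen and 2014 had fallen. Of the 6 risen, COX4I2, COX6A2, COX7B2 and COX8C are the isoforms listed at 0 in the control, which had to be higher, and COX6B2 and NDUFA1 are the others. Over all 20051 symbols tested 21.3% had risen and 17.7% had fallen, and the median was 0.14, or -0.04 over the 15278 symbols above 0 in all samples. Past 2-fold as well, 5 members had risen (COX6B2 and those 4 isoforms) and 0 had fallen (37 fell at an unadjusted p under 0.05 without the fold limit), against 14.1% and 2.17% of all symbols. At an unadjusted p under 0.05 without the fold limit 4401 of all 20051 symbols had fallen and 5339 had risen. The 27 fallen members lay between -0.83 and -0.28.

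The fall depended on how libraries were put on one scale, and no scale is given by the files. With median-of-ratios scaling 6 members had risen and 29 had fallen, with a median of -0.22, while 4613 and 3618 of all 20051 symbols had. With total scaling, which gives all libraries the same summed FPKM, the counts were 15 risen and 8 fallen with a median of 0.03, and per estimated fragment they were 18 risen and 7 fallen with a median of 0.04. Among all 20051 symbols 6623 had risen and 1550 had fallen with total scaling, and 6891 and 1573 per estimated fragment. On those scales the median of symbols above 0 in all samples was itself 0.25 and 0.26. The gap between the members' median and that of all such symbols is nearly the same on every scale by construction. A scale moves all abundant members by the same amount, so it sets the direction of a member with a small difference but not the order of the members.

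**Figure D2:**
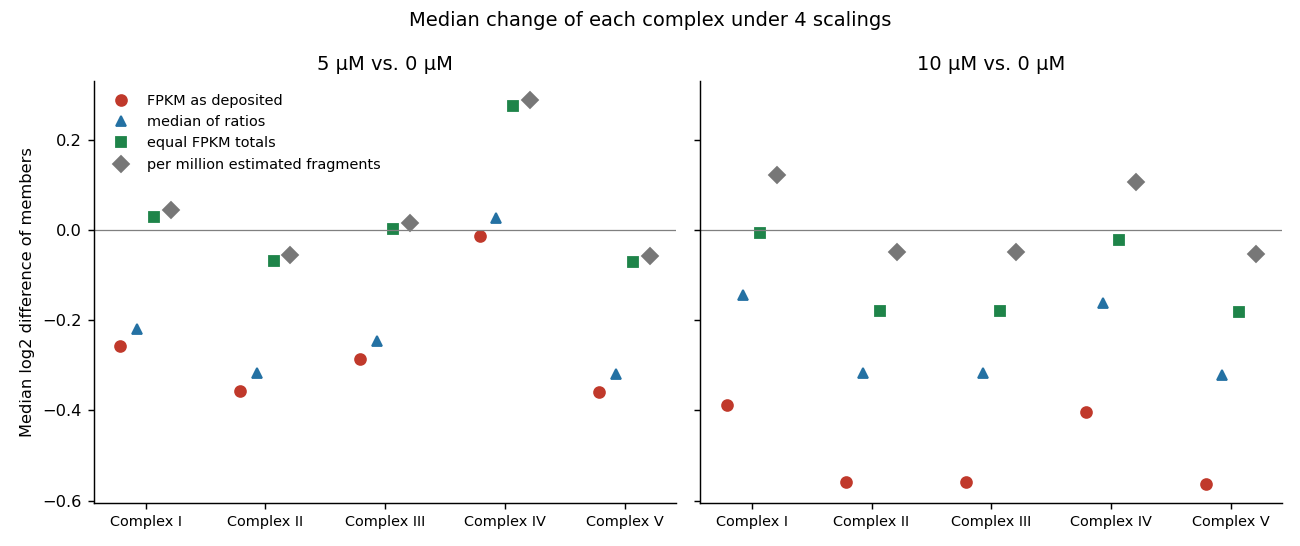
Median log2 difference of the members of each complex in 5 µM vs. 0 µM and 10 µM vs. 0 µM under 4 scalings between libraries. In 5 µM vs. 0 µM complex I moves from -0.26 as deposited to 0.03 with total scaling and complex V from -0.36 to -0.07. The complex IV median in 5 µM vs. 0 µM includes the 4 isoforms listed at 0 in the control, which were not tested in 10 µM vs. 0 µM.

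In 5 µM vs. 0 µM 7 members had fallen on all 4 scales. These were ATP5S (-0.83 to -0.53 over the scales), COX7A2L (-0.71 to -0.41), ATP5SL (-0.63 to -0.33), NDUFS8 (-0.58 to -0.28), UQCRFS1 (-0.53 to -0.23), UQCRC1 (-0.51 to -0.21) and NDUFB11 (-0.50 to -0.20). NDUFA1 (0.44 to 0.74) and COX6B2 (4.03 to 4.33) had risen on all 4, while the isoforms listed at 0 in the control are 0 there on any scale and are not counted. UQCRC2, COX7C, COX6A1, SDHA and ATP5G3, described below as fallen on the deposited scale, were not called with total scaling (-0.21 to -0.07, adjusted p of 0.0841 to 0.41). Single libraries carried part of the other calls: with each of the 6 samples left out in turn, between 8 and 41 members had fallen and 5 to 7 had risen. Of the members described below, NDUFS8, NDUFB11, SDHA, UQCRFS1 and UQCRC1 passed whichever sample was left out, and NDUFA1, COX7A2L and ATP5S passed in 3 of the 6 such fits. The fallen numbered 11, 9 and 41 without control replicate 1, 2 and 3, and 9, 24 and 8 without 5 µM replicate 1, 2 and 3. Over all symbols in the same fits 2512, 2320 and 3627 had fallen, and 2674, 3178 and 2569. The risen over all symbols numbered 3227 to 4188. Between 19706 and 20021 symbols were tested in these fits.

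By complex the falls on the deposited scale were spread as follows, where 21.3% of all symbols tested had risen and 17.7% had fallen. In complex I 1 of 37 had risen and 10 had fallen (median -0.26), in complex II 0 and 1 of 4 (median -0.36), in complex III 0 and 4 of 9 (median -0.29), in complex IV 5 (COX6B2 and the 4 isoforms listed at 0 in the control) and 3 of 18 (median -0.01) and in complex V 0 and 9 of 19 (median -0.36). At an unadjusted p under 0.05 no member of complexes II, III and V had risen on that scale, against 5339 of all 20051 symbols. With total scaling 0, 2 and 3 of them had, against 8033. At the adjusted threshold total scaling gave 5, 0, 0, 8 and 2 risen and 3, 0, 2, 1 and 2 fallen from I to V, against 6623 and 1550 of all symbols. The 8 of complex IV include the 4 isoforms listed at 0 in the control. With total scaling the medians were 0.03, -0.07, 0.00, 0.27 and -0.07 in the order I to V. On each scale the complex IV median is over all 18 members. It includes the 4 isoforms listed at 0 in the control, whose calls carry no weight. They stand above the median and raise it, so nothing is read from the distance of complex IV to the other complexes.

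**Figure D3:**
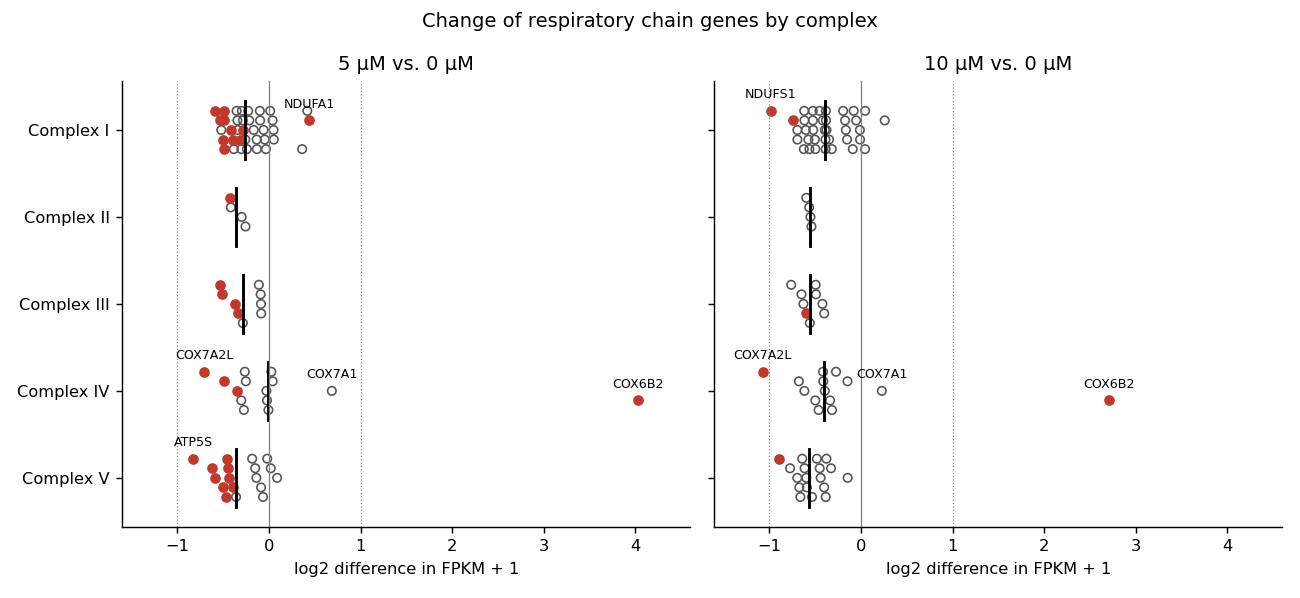
Log2 difference of each member in 5 µM vs. 0 µM and 10 µM vs. 0 µM 5-Aza, by complex, with the median of all tested members of the complex as a line. Members of low level (COX4I2, COX6A2, COX7B2, COX8C and ATP5J2-PTCD1) are left out of the points but count in the medians of 5 µM vs. 0 µM. Filled points passed the test. COX6B2 is the point at 4.03 and 2.71, and all other points lie between -1.07 and 0.69.

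In complex I, the NADH dehydrogenase, NDUFS8 fell most in 5 µM vs. 0 µM. It carries iron-sulfur clusters on the path to ubiquinone and was at 1361, 1365 and 1142 kFPKM at 0 µM, 899, 837 and 838 kFPKM at 5 µM and 600, 1028 and 954 kFPKM at 10 µM. All treated samples lay below the control. The difference was -0.58 ± 0.09 at 5 µM (adjusted p = 0.0038) and -0.62 at 10 µM (adjusted p = 0.104). NDUFB11, an X-linked accessory subunit of the membrane arm, was at 797, 701 and 683 kFPKM, then 494, 513 and 527 kFPKM, then 357, 500 and 460 kFPKM. The groups of treated samples again lay below the control, by -0.50 ± 0.08 at 5 µM (adjusted p = 0.00361) and -0.74 ± 0.16 at 10 µM (adjusted p = 0.0292), and its 5 µM vs. 0 µM call held under all 18 alternative settings.

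The complex I subunit that rose on the deposited scale was NDUFA1, an X-linked accessory subunit needed for assembly of the membrane arm. With total scaling NDUFA2, NDUFA5, NDUFB1 and NDUFS5 were called risen as well. NDUFA1 was at 1374, 1292 and 1088 kFPKM at 0 µM, 1744, 1794 and 1537 kFPKM at 5 µM and 848, 1426 and 1115 kFPKM at 10 µM. The 5 µM samples were above all controls, and the 10 µM samples overlapped them. The 5 µM vs. 0 µM difference was 0.44 ± 0.11 (adjusted p = 0.0252) and was called under 13 of 18 alternative settings. The 10 µM vs. 0 µM difference was -0.17 (95% interval -0.70 to 0.35, adjusted p = 0.582).

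Of the catalytic core of complex I, NDUFS1, the largest iron-sulfur subunit, was at 399, 418 and 354 kFPKM at 0 µM, 249, 314 and 322 kFPKM at 5 µM and 172, 298 and 148 kFPKM at 10 µM. No treated sample reached the lowest control. It fell by 0.41 ± 0.12 on the log2 scale at 5 µM (adjusted p = 0.0384) and by 0.98 ± 0.25 at 10 µM (adjusted p = 0.0429). The call at 5 µM passed in 1 of 6 fits that left out a sample, and with total scaling the difference was -0.12 (adjusted p = 0.386). NDUFV1, which binds NADH, was at 1069, 1048 and 988 kFPKM, then 898, 839 and 822 kFPKM, then 777, 1101 and 1269 kFPKM. Its 5 µM vs. 0 µM difference of -0.28 ± 0.07 (adjusted p = 0.0204) was 0.01 with total scaling and 0.02 per estimated fragment (adjusted p = 0.936 and 0.847), and the 10 µM samples lay on both sides of the control. The other fallen members were NDUFB7, NDUFA11, NDUFB10, NDUFS7, NDUFC1 and NDUFA9, between -0.54 and -0.32.

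Complex II oxidizes succinate and has no other subunits than the 4 taken here. SDHA, the flavoprotein, was at 725, 737 and 614 kFPKM at 0 µM, 504, 520 and 511 kFPKM at 5 µM and 378, 601 and 446 kFPKM at 10 µM. All treated samples were below the control, with a difference of -0.43 ± 0.09 at 5 µM (adjusted p = 0.00945) and -0.56 at 10 µM (adjusted p = 0.086). SDHB, the iron-sulfur subunit, was at 676, 644 and 561 kFPKM, then 454, 547 and 530 kFPKM, then 321, 534 and 413 kFPKM. SDHB also showed no overlap with the control, and its difference of -0.30 (95% interval -0.55 to -0.04) did not pass (adjusted p = 0.0687). The membrane anchors overlapped the control at 5 µM. SDHC was at 191, 180 and 156 kFPKM, then 131, 167 and 143 kFPKM, then 101, 171 and 100 kFPKM (-0.26, 95% interval -0.55 to 0.04, adjusted p = 0.138). SDHD was at 462, 467 and 417 kFPKM, then 275, 430 and 319 kFPKM, then 228, 405 and 309 kFPKM (-0.42, 95% interval -0.81 to -0.02, adjusted p = 0.0916).

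In complex III, the cytochrome bc1 complex, UQCRFS1, the Rieske iron-sulfur protein, was at 986, 1015 and 871 kFPKM at 0 µM, 606, 700 and 683 kFPKM at 5 µM and 381, 754 and 624 kFPKM at 10 µM. The 5 µM vs. 0 µM difference was -0.53 ± 0.09 (adjusted p = 0.00548), with no overlap. The core proteins fell as well. UQCRC1 was at 809, 762 and 630 kFPKM, then 510, 507 and 520 kFPKM, then 372, 588 and 460 kFPKM (-0.51 ± 0.10, adjusted p = 0.00952). UQCRC2 was at 966, 1026 and 866 kFPKM, then 723, 775 and 710 kFPKM, then 571, 750 and 578 kFPKM (-0.37 ± 0.08, adjusted p = 0.0157), and it was also past the test in 10 µM vs. 0 µM (-0.60 ± 0.16, adjusted p = 0.0491). The small subunits UQCRB, UQCR10, UQCRQ and UQCRH lay between -0.29 and -0.08 without passing, and UQCR11 fell by 0.34 (adjusted p = 0.0437). UQCRH and UQCRHL are near-identical copies, so the split of fragments between them is uncertain.

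Among the ubiquitous members of complex IV, COX7A2L fell most. It was at 1527, 1558 and 1172 kFPKM at 0 µM, 748, 1037 and 824 kFPKM at 5 µM and 496, 918 and 659 kFPKM at 10 µM. The difference was -0.71 ± 0.16 at 5 µM (adjusted p = 0.0166) and -1.07 ± 0.25 at 10 µM (adjusted p = 0.0328), and the treated samples did not overlap the control. COX7C, a small membrane subunit, was at 5443, 4959 and 4093 kFPKM, then 3378, 3585 and 3275 kFPKM, then 2069, 3955 and 3303 kFPKM (-0.49 ± 0.13 at 5 µM, adjusted p = 0.0264). COX6A1, the ubiquitous partner of COX6A2, was at 2278, 2191 and 1871 kFPKM, then 1574, 1766 and 1610 kFPKM, then 1239, 1885 and 1701 kFPKM (-0.35 ± 0.10 at 5 µM, adjusted p = 0.0361). The 5 µM samples of both lay below the control, while COX6A1 overlapped it at 10 µM.

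The other ubiquitous forms did not pass in 5 µM vs. 0 µM. COX4I1, the subunit through which ATP slows the enzyme, was at 2215, 2124 and 1776 kFPKM at 0 µM, 1672, 1708 and 1562 kFPKM at 5 µM and 1228, 1842 and 1628 kFPKM at 10 µM (-0.30, 95% interval -0.56 to -0.05, adjusted p = 0.0641). COX4I1 overlaps COX4NB on the opposite strand, and without strand information their shared fragments cannot be told apart. COX7B, a membrane subunit, was at 2571, 2875 and 2457 kFPKM, then 2672, 2858 and 2511 kFPKM, then 1507, 2663 and 2246 kFPKM (0.03, 95% interval -0.21 to 0.26, adjusted p = 0.847). COX7A2 was at 1119, 856 and 685 kFPKM, then 812, 1020 and 783 kFPKM, then 530, 927 and 692 kFPKM (-0.01, 95% interval -0.48 to 0.47, adjusted p = 0.986). All 3 overlapped the control in at least the 10 µM group.

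In complex V, the alpha, beta and gamma subunits of the catalytic head were among the fallen members on the deposited scale. ATP5A1 (now ATP5F1A), the alpha subunit, was at 1528, 1582 and 1274 kFPKM at 0 µM, 965, 1141 and 1094 kFPKM at 5 µM and 648, 1104 and 862 kFPKM at 10 µM (-0.45 ± 0.11 at 5 µM, adjusted p = 0.0219). ATP5B (now ATP5F1B), the catalytic beta subunit, was at 3551, 3508 and 2900 kFPKM, then 2290, 2524 and 2507 kFPKM, then 1553, 2724 and 2015 kFPKM (-0.44 ± 0.11, adjusted p = 0.0223). ATP5C1 (now ATP5F1C), the gamma shaft, was at 1490, 1464 and 1246 kFPKM, then 775, 1139 and 903 kFPKM, then 576, 975 and 758 kFPKM, and it fell by 0.59 ± 0.16 at 5 µM (adjusted p = 0.0262) and by 0.89 ± 0.22 at 10 µM (adjusted p = 0.037). In all 3 genes every treated sample lay below every control. The 5 µM calls passed in 2, 1 and 2 of the 6 fits that left out a sample, and with total scaling they were lost, at -0.16 (adjusted p = 0.143), -0.15 (adjusted p = 0.13) and -0.30 (adjusted p = 0.0965).

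In 5 µM vs. 0 µM the largest fall of the members was in ATP5S, at 68.7, 63.4 and 47.7 kFPKM at 0 µM, 30.3, 41.3 and 29.7 kFPKM at 5 µM and 43.1, 50.2 and 43.8 kFPKM at 10 µM. The 5 µM samples lay below the control, by -0.83 ± 0.19 (adjusted p = 0.0174), while 10 µM overlapped it. ATP5S overlaps CDKL1 on the opposite strand, and their shared fragments cannot be told apart. The remaining fallen members were ATP5SL, ATP5I, ATP5F1, ATP5G3 and ATP5D, between -0.63 and -0.39. ATP5J2-PTCD1 was at or near 0 except for 7.07 kFPKM in 5 µM replicate 1, and ATP5L2 lies inside CYB5R3 on the same strand, so the values of both are uncertain.

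The c-ring of complex V is built from a single protein that 3 genes encode with different import sequences. ATP5G2 was at 1649, 1575 and 1414 kFPKM at 0 µM, 1338, 1477 and 1359 kFPKM at 5 µM and 833, 1530 and 1250 kFPKM at 10 µM (-0.15 at 5 µM, 95% interval -0.36 to 0.06, adjusted p = 0.212). ATP5G1 was at 599, 570 and 440 kFPKM, then 501, 491 and 459 kFPKM, then 262, 551 and 418 kFPKM (-0.14, 95% interval -0.44 to 0.16, adjusted p = 0.413). ATP5G3, the least abundant, was at 314, 291 and 228 kFPKM, then 189, 216 and 197 kFPKM, then 127, 230 and 180 kFPKM, and it fell at 5 µM (-0.46 ± 0.13, adjusted p = 0.0355). The 3 genes were set against each other only within samples. As a percent of ATP5G2, ATP5G3 was at 19.0, 18.5 and 16.1% at 0 µM, 14.1, 14.6 and 14.5% at 5 µM and 15.3, 15.1 and 14.4% at 10 µM. Neither treated group overlapped the control (2-sided exact permutation test, p = 0.1, again the lower limit). ATP5G1 as a percent of ATP5G2 overlapped between all groups, with means of 34.5, 34.8 and 33.6%.

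Summed over its members, complex I was at 25.6 ± 2.82 MFPKM (SD, n = 3) at 0 µM, 88.1% of that at 5 µM and 82.3% at 10 µM. The corresponding percentages were 77.8 and 68.8% for complex II (control mean 1.94 MFPKM), 84.5 and 70.2% for complex III (controls 6.13 to 7.44 MFPKM), 86.9 and 74.4% for complex IV (control mean 24.2 MFPKM) and 82.8 and 69.8% for complex V (control mean 24.9 MFPKM). All members together were at 83.7 ± 10.1 MFPKM at 0 µM, 71.7 ± 5.19 MFPKM at 5 µM and 62.7 ± 17.7 MFPKM at 10 µM. The 10 µM sum was 43.9, 79.1 and 65.2 MFPKM in replicates 1, 2 and 3. It was 72.2 to 91.0 MFPKM in the controls and 68.3 to 77.6 MFPKM at 5 µM, so the lower 10 µM mean rests largely on replicate 1. With total scaling the sum at 5 µM was 105% of the control and at 10 µM 95.8%, so the direction at 5 µM turned with the scale. The composition does not depend on a scale between libraries. Complex I was 30.6 ± 0.348% (SD, n = 3) of the sum at 0 µM, 31.5 ± 0.579% at 5 µM and 33.7 ± 0.667% at 10 µM, and the 10 µM samples lay above all controls while the 5 µM samples overlapped them. Complex V was 29.7 ± 0.379, 28.7 ± 0.474 and 27.6 ± 0.657%, with both treated groups below all controls. Complex II was 2.33, 2.11 and 2.15%, with only the 5 µM samples all below the controls. Complex III was 8.37, 8.26 and 7.79%, with only the 10 µM samples all below the controls. Complex IV was 29.0, 29.4 and 28.8%, with the 5 µM samples above all controls and the 10 µM samples overlapping them.

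**Figure D4:**
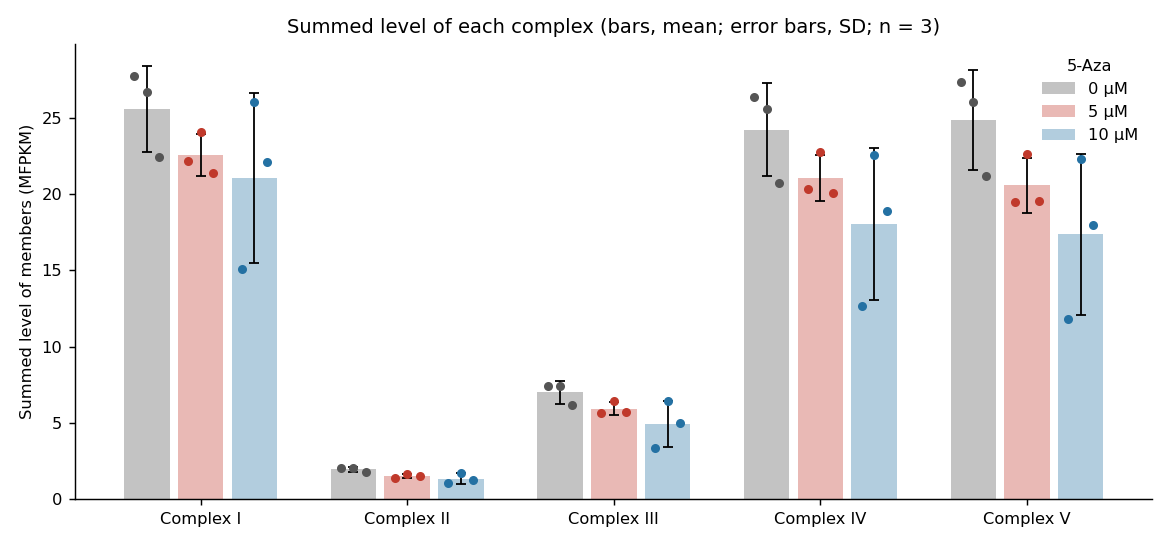
Summed FPKM of the members of each complex in each sample, by 5-Aza group (points, samples; bars, mean; error bars, SD, n = 3). Over complexes I to V together the control samples sum to 72.2 to 91.0 MFPKM, the 5 µM samples to 68.3 to 77.6 MFPKM and the 10 µM samples to 43.9 to 79.1 MFPKM, where replicate 1 is the lowest in each complex.

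With 10 µM vs. 0 µM compared, 82 members were tested, 1 had risen and 5 had fallen by limma, with a median difference of -0.47. Over all 18928 symbols tested 5.39% had risen and 9.71% had fallen, and the median of symbols above 0 in all samples was -0.23. The risen member was COX6B2, and the fallen members were COX7A2L, NDUFS1, ATP5C1, NDUFB11 and UQCRC2. Past 2-fold were COX6B2 and COX7A2L, against 4.07% and 3.4% of all symbols. At an unadjusted p under 0.05 30 had fallen and 1 had risen, against 4579 and 2145 of all 18928 symbols. The 5 members that were not tested, COX4I2, COX6A2, COX7B2, COX8C and ATP5J2-PTCD1, did not reach 10 FPKM in either group.

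These 5 falls rested on the sample set. The median of 83 members against the control mean was -0.97 in 10 µM replicate 1 but -0.08 in replicate 2 and -0.38 in replicate 3, while all 15278 symbols above 0 in all samples were at -0.34, -0.03 and -0.31. Without replicate 1 the members' median was -0.23, with 1 risen and 0 fallen by limma (13 fell at an unadjusted p under 0.05). Among all 18761 symbols tested without replicate 1, 517 had risen and 442 had fallen (3419 fell at an unadjusted p under 0.05). Leaving out replicate 3 of the 10 µM group or any control sample also gave 0 fallen, and leaving out replicate 2 gave 33. The counts over all symbols moved as well, from 1837 of 18928 fallen with all samples. Without 10 µM replicate 3 347 of 18623 had fallen, and without replicate 2 5219 of 18632. Without control replicate 1, 2 and 3 the fallen were 257 of 18755, 176 of 18843 and 463 of 18794. With total scaling 3 had risen and 4 had fallen (median -0.09), and per estimated fragment 7 had risen and 2 had fallen (median 0.04). Among all 18928 symbols 2553 had risen and 1105 had fallen with total scaling, and among 18929 per estimated fragment 3689 and 727. COX7A2L (-1.07 to -0.56), ATP5C1 (-0.89 to -0.38) and COX6B2 (2.71 to 3.22) were called on all 4 scales. By complex the medians were -0.39, -0.56, -0.56, -0.40 and -0.56 from I to V. Here the complex IV median is over 14 members, without the 4 isoforms that its median in 5 µM vs. 0 µM includes. The comparison shares its control samples with 5 µM vs. 0 µM, so the values of both are set side by side only.

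**Figure D5:**
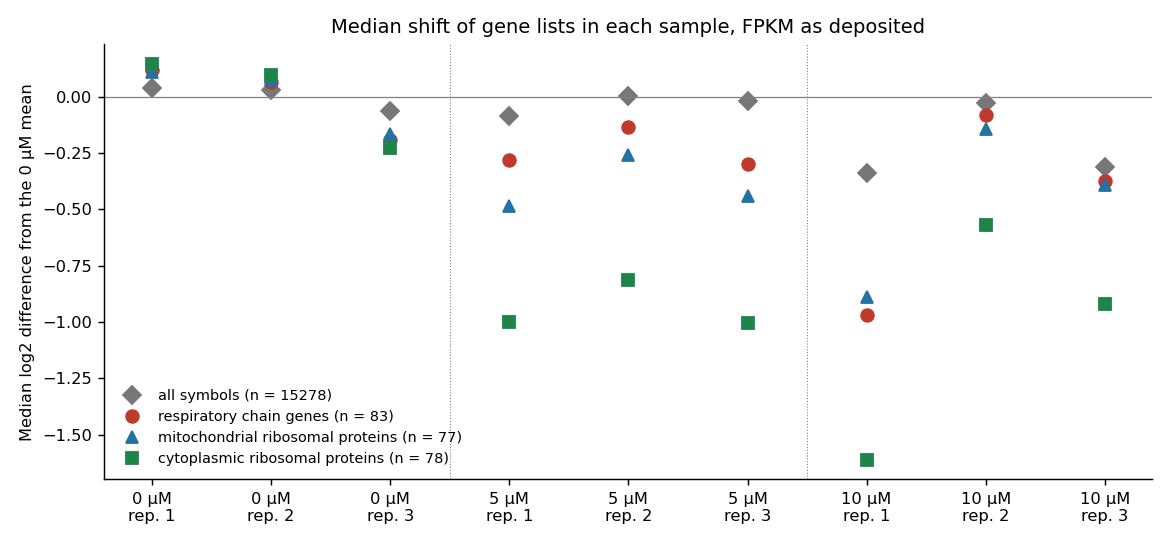
Median log2 difference from the control mean in each sample for the members, for all symbols above 0 in all samples and for cytoplasmic and mitochondrial ribosomal protein genes. The members are at -0.28, -0.14 and -0.30 in the 5 µM samples and at -0.97, -0.08 and -0.38 in the 10 µM samples, and cytoplasmic ribosomal protein genes are lower in all 6.

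Between 10 µM and 5 µM, 0 members had risen and 5 had fallen past 2-fold, but COX8C, COX7B2, COX6A2 and COX4I2 are listed at 0 in all 10 µM samples and passed the filter through the 5 µM group alone. The other was COX6B2, whose values are given above. At an unadjusted p under 0.05 1 had risen and 7 had fallen, against 570 and 4411 of all 20085 symbols. Over all 20085 symbols tested 0.319% had risen and 5.85% had fallen (past 2-fold 0.129% and 4.82%). COX6B2 was not called on all 4 scales. The median of all members was -0.23 with 10 µM replicate 1 and 0.01 without it.

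Genes that work with the complexes were counted in the same 5 µM vs. 0 µM fit, where 21.3% of all symbols had risen and 17.7% had fallen. Of 38 assembly factors 2 had risen and 20 had fallen (median -0.33). The largest falls were in ATPAF1, which assembles the head of complex V (-0.96, adjusted p = 0.00225), in ECSIT, a complex I assembly factor (-0.94, adjusted p = 0.00172), and in SDHAF1, which helps mature SDHB (-0.75, adjusted p = 0.00318). The complex I factors FOXRED1 and NDUFAF1 rose by 0.38 (adjusted p = 0.0265) and 0.31 (adjusted p = 0.0215). With total scaling the list had 8 risen and 5 fallen, with a median of -0.05.

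Of 11 further subunits and electron carriers 1 had risen and 3 had fallen (median -0.12, or 0.17 with total scaling, where 4 had risen and 3 had fallen). CYC1, cytochrome c1 of complex III, fell by 0.75 (adjusted p = 0.000728). ETFA and ETFB, the subunits of the electron transfer flavoprotein that feeds electrons from fatty acid oxidation, fell by 0.53 (adjusted p = 0.00633) and 0.99 (adjusted p = 0.00176), while ETFDH, their dehydrogenase at ubiquinone, rose by 0.65 (adjusted p = 0.00193).

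Of 20 nuclear regulators of mitochondrial genes 0 had risen and 10 had fallen (median -0.35). With total scaling 3 had risen and 5 had fallen (median -0.06). MYC, a general activator of growth genes, fell by 1.47 (adjusted p = 0.000297), ESRRA, the estrogen-related receptor alpha, by 0.65 (adjusted p = 0.000725), PPARGC1B, a coactivator, by 0.64 (adjusted p = 0.0112) and TFAM, which packages and transcribes mitochondrial DNA, by 0.53 (adjusted p = 0.0389). NRF1 was at -0.04 (adjusted p = 0.731) and GABPA at -0.08 (adjusted p = 0.596). PPARGC1A, the coactivator PGC-1alpha, was low, with means of 310 FPKM at 0 µM and 939 FPKM at 5 µM. On the deposited scale its difference of 1.56 did not pass (adjusted p = 0.068, the 1 regulator higher at an unadjusted p under 0.05). Per estimated fragment 3 had risen, PPARGC1A (1.86, adjusted p = 0.0392), GABPB1 (0.40, adjusted p = 0.0039) and MTERF (0.33, adjusted p = 0.0448). There 5 had fallen, MYC, ESRRA, GABPB2, PPRC1 and C10orf2. PPARGC1B (-0.34, adjusted p = 0.0947) and TFAM (-0.23, adjusted p = 0.178) did not pass on that scale.

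Other large lists of genes in every cell were counted the same way. Of 77 mitochondrial ribosomal protein genes 1 had risen and 40 had fallen (median -0.40), and of 81 cytoplasmic ribosomal protein genes tested 2 had risen and 69 had fallen (median -0.93). With total scaling the medians were -0.11 and -0.65. In 10 µM vs. 0 µM the falls counted 3 of 38 assembly factors, 1 of 11 carriers, 3 of 20 regulators, 11 of 77 mitochondrial and 15 of 81 cytoplasmic ribosomal protein genes, with no rise in any of the 5 lists, against 9.71% of all symbols that had fallen. The counts of assembly factors and carriers lie below that share, and nothing is read from the others. Of the assembly factors BCS1L, which inserts the Rieske protein into complex III, rose in 10 µM vs. 5 µM (0.67, adjusted p = 0.0472), and 1 mitochondrial ribosomal protein gene fell. BCS1L had fallen in 5 µM vs. 0 µM (-0.62, adjusted p = 0.00308) and was at 0.05 in 10 µM vs. 0 µM (adjusted p = 0.818).

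Promoters of the members were searched for motifs that regulate respiratory genes in other settings. RefSeq held windows for 68 of the 87 members (81 windows, GRCh38.p14). On either strand, GCATGCGC, from the NRF-1 palindrome, was found in 15 windows (18.52%, against 3.053% of all windows), CCGGAAG, the GABP/ETS core, in 22 (27.16% against 10.26%), AAGATGG of YY1 in 19 (23.46% against 5.841%) and CAAGGTCA of the ERR receptors in 5 (6.173% against 1.281%). Of the members, 29 held an NRF-1 or a GABP/ETS match. A match describes the letters in the window, and binding was not measured.

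Examples from the members of complexes I, II and V described above are given with the matched letters in capitals, on the strand of the gene, to show the shared element in genes that fell (NDUFS7, NDUFS1, ATP5C1), did not pass (SDHB, SDHD) or rose (NDUFA1). The first 4 hold the NRF-1 letters and the last 2 the GABP/ETS letters as their complement.
NDUFS7, chr19:1383823-1383852, plus strand: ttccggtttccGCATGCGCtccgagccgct
ATP5C1, chr10:7788146-7788175, plus strand: ggagcttcggcGCATGCGCgctgaggcctg
SDHB, chr1:17054214-17054243, minus strand: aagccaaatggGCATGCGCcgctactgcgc
SDHD, chr11:112086754-112086783, plus strand: gctgtgtttgcGCATGCGCgacgggtgtgc
NDUFS1, chr2:206159584-206159612, minus strand: ggctggggccaCTTCCGGcggaactgcgg
NDUFA1, chrX:119871774-119871802, plus strand: ttccgtcgcttCTTCCGGagccgtacgtg
The examples were chosen by their change, so nothing follows from it about the element. The median CpG count of the member windows was 21, against 14 over all windows, and of the tissue-restricted forms COX6B2 held 31, COX8C 10, COX7B2 8 and COX6A2 5.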

How the data were processed

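RNA-Seq was performed by the authors on 9 HT-29 cultures, 3 per group at 0, 5 and 10 µM 5-Aza for 5 days, with a kit that does not mark strand. They aligned reads to hg19 with TopHat and computed the deposited FPKM values per gene with Cufflinks. The library term and annotation version are not given in the sources used here. Groups and replicate numbers are those of the labels, and the replicates are separate cultures.

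Values of repeated symbols were summed and transformed as log2(FPKM + 1), so folds are on that scale. Symbols reaching 10 FPKM in either group were fitted with limma 3.58.1 under R 4.3.3 (lmFit, eBayes with an intensity trend) on the 6 samples of each pair, without a replicate block. A gene had risen or fallen when its p, adjusted by Benjamini-Hochberg over all symbols tested, was at most 0.05, and past 2-fold was counted apart. Intervals are at 95%. Exact permutation tests were 2-sided. Tables were made with Python 3.11.15, pandas 2.3.3, numpy 2.4.6 and scipy 1.17.1. Members and lists were chosen with earlier results of these data known. Genes with values in all samples were members past both thresholds, the largest rise and fall per complex, isoform sets, complex II and catalytic subunits. For 1 such gene no values are reported here. NDUFB11, COX7C, UQCRC2 and ATP5C1 were added after their values were seen.

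Depth was estimated, since FPKM holds no totals, from the whole-fragment steps of low values (51 of 51 values at 13 microRNA genes of 110 nucleotides within a tolerance of 0.01). It also used the step expected from transcript length, which held within 15% for 221 of 422 low genes. For COX7A1 and COX7B2 the expected step was 3.87 and 0.476 of the step found, so depth and fragments are approximate. For low members the tolerance was 0.02. Estimated fragments were not tested as counts, and precision there is limited by counting error, which floors of 3 fragments cover. On simulated data with 200 of 15278 genes changed by 1.5 on the log2 scale, 93.5% were recovered in 5 µM vs. 0 µM, 69.5% in 10 µM vs. 0 µM and 81% in 10 µM vs. 5 µM, with 11, 7 and 8 false calls. These changes were larger than the falls of the abundant members. The most variable genes were not among those changed, and shifts of whole libraries were not simulated. The rates therefore do not describe the power or error of the falls reported here. Alternatives were other pseudocounts, filters, scalings and fits, the replicate number as a block, and each replicate left out. Locations of genes are from a GRCh37 annotation and promoters from RefSeq GRCh38.p14.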

Additional observations from a re-analysis of the deposited data

How the results depend on the processing

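The direction of the median depended on the scale between libraries, for which the deposited FPKM values give no reference, and the number of fallen members also on the fit and on single samples. In 5 µM vs. 0 µM, total scaling gave 15 risen and 8 fallen members and a median of 0.031, and scaling per estimated fragment gave 18 risen, 7 fallen and 0.0447, so the median turned sign on both. NDUFV1 turned too, to 0.0077 and 0.0213. With all 9 samples in 1 fit 2 had fallen, without an intensity trend 16 and past 2-fold as well 0. At 10 µM vs. 0 µM, total scaling gave 3 risen and a median of -0.0927, scaling per estimated fragment 7 risen, 2 fallen and a median of 0.0371, no filter on low values 3 fallen, all 9 samples in 1 fit 15, no intensity trend 0 and past 2-fold as well 1. Median-of-ratios scaling without 10 µM replicate 1 gave 2 risen and a median of -0.0497. For 10 µM vs. 5 µM, median-of-ratios scaling gave 1 risen, and without 10 µM replicate 1 it gave 3 risen and a median of 0.15, of turned sign. The summed level of all members was 105% of the control at 5 µM with total scaling and 106% per estimated fragment, and 95.8% and 105% at 10 µM. With 1 replicate left out at a time, the fallen members numbered 8 to 41 and the risen 5 to 7 in 5 µM vs. 0 µM (median -0.33 to -0.19), 0 to 33 and 1 to 1 in 10 µM vs. 0 µM (median -0.69 to -0.23) and 3 to 9 and 0 to 0 in 10 µM vs. 5 µM (median -0.41 to 0.0077, the latter without 10 µM replicate 1). In the last comparison the fallen numbered 3 without 5 µM replicate 3 and 9 without 10 µM replicate 2. Over all symbols 176 of 19772 and 3993 of 20029 had fallen in those 2 fits, and the counts for the other comparisons are given above. Scaling per estimated fragment, median-of-ratios scaling with the replicate block or without 10 µM replicate 1, and the scalings of the sums were chosen after seeing the data. Apart from the scalings, the cause of these moves was not tested.

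The replicate numbers showed no sign of pairing the samples: deviations of samples with the same number correlated at -0.07 to 0.09 over 9 pairs, against -0.16 to 0.10 over 18 pairs with different numbers. The pairs share samples and the labels do not state a pairing, so these values cannot settle whether the cultures were paired. With the replicate block 7 had risen and 19 had fallen in 5 µM vs. 0 µM, 1 and 2 in 10 µM vs. 0 µM, and 0 and 4 in 10 µM vs. 5 µM. With median-of-ratios scaling and the replicate block 3 had fallen in 10 µM vs. 0 µM and 2 in 10 µM vs. 5 µM. Depth limits COX7B2, COX6A2 and COX4I2, whose calls rest on an estimated 1 to 3 fragments per sample.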

Other observations

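The most opposed subunits of complex I in 5 µM vs. 0 µM were compared within samples, which no scaling between libraries affects. NDUFA1 as a percent of NDUFS8 was 101, 94.7 and 95.2% in the control samples, 194, 214 and 183% in the 5 µM samples and 141, 139 and 117% in the 10 µM samples. The 3 groups did not overlap. The pair was chosen as the largest rise and the largest fall of the complex, so these values are a description and no test is given.

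Among 77 abundant members, longer transcripts had lower differences in 5 µM vs. 0 µM. The correlation across genes with the log2 length of the canonical transcript was r = -0.21 (Spearman's rho = -0.29), and the median was -0.13 for 33 members under 700 nucleotides and -0.30 for 44 of 700 nucleotides or more. For 10 µM vs. 0 µM the correlation was r = -0.19 (rho = -0.28), with medians of -0.41 and -0.53. The level in the control showed r = 0.01 in 5 µM vs. 0 µM. The genes share their libraries and are not independent replicates, and the part of transcript length in the differences was not tested.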
